A study of Mus musculus with 8 samples.

Results

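The genes described here are p53 (Trp53) and 9 genes known as its targets, 10 of the 36317 gene symbols in the table. They were chosen by name, but with earlier results of these data known. By role they were 1 regulator, 3 feedback genes (Mdm2, Ccng1, Trp53inp1), 2 arrest and metabolic genes (Sesn2, Phlda3) and 4 apoptotic genes (Pmaip1, Bbc3, Bax, Eda2r). Transcript levels came from bulk RNA sequencing of 8 libraries of mouse embryonic central nervous system in 4 groups of 2: wild-type (wt) forebrain at embryonic day (E) 13.5, wt spinal cord at E13.5, wt forebrain at E15.5, and EED-cKO forebrain at E15.5. EED-cKO embryos carry a conditional knockout of Eed, a core subunit of the Polycomb repressive complex PRC2, that depends on Sox1-Cre. Sox1 marks the early neural lineage, and cells of the dissected tissue outside the Cre lineage keep the gene. The labels do not say whether the 2 libraries of a group came from separate embryos, litters or pools, so a p-value here covers the spread between these samples alone, which may be technical.

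p53 is a transcription factor that is made continuously and degraded at the prompting of Mdm2, an E3 ubiquitin ligase that is itself a p53 target. DNA damage, ribosomal stress or the Cdkn2a product p19Arf relieves this degradation, after which p53 raises genes that halt the cell cycle, restrain growth, permeabilise mitochondria or feed back on p53. In the developing brain, p53 is known for removing damaged neural progenitors, and p53 protein, not its transcript, is the usual point of control. Only transcripts were measured here.

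Eed checked the knockout label. It stood at 25.8 and 27.9 RPKM (reads per kilobase of transcript, scaled to mapped reads) in wt E15.5 forebrain, against 10 and 10.6 RPKM in EED-cKO, a log2 change of -1.30 (SE 0.085). The limma adjusted p was 8.65e-05. Library sums of RPKM ran from 378294 to 397318 at E13.5 and from 761646 to 843295 at E15.5, so age and processing cannot be told apart and levels were not tested between ages. Gene names and values of the E15.5 columns were out of step for part of the table, but all 10 genes occupied the same row before and after the order was restored, so that step leaves their levels untouched. All 10 passed the filter of at least 1 RPKM in at least 2 libraries, but Eda2r reached 1 RPKM only in the 2 EED-cKO libraries. In bulk tissue, fewer cells of a type and less RNA per cell cannot be told apart.

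The p53 response element is built from a pair of 10-base motifs, each called a decamer here. RefSeq windows of the 250 bases before the transcription start (GRCm38.p6) were at hand for 8 of the 10 genes, and 4 of them held a decamer: Trp53 (chr11:69580109-69580358, plus strand), Mdm2 (chr10:117710759-117711008, minus strand), Ccng1 (chr11:40755287-40755536, minus strand) and Bax (chr7:45466899-45467148, minus strand). These 8 genes had 10 windows, 3 of them of Bbc3, and 4 of the 10 held a decamer, against 7.13% of all 32851 windows, counting both strands. The 4 windows are shown because their genes took different courses in the data, with the matched decamer in capitals.
Trp53: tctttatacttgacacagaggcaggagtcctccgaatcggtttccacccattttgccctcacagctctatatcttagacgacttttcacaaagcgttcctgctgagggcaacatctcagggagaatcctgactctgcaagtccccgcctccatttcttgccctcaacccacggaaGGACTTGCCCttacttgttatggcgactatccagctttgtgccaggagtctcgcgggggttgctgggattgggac
Mdm2: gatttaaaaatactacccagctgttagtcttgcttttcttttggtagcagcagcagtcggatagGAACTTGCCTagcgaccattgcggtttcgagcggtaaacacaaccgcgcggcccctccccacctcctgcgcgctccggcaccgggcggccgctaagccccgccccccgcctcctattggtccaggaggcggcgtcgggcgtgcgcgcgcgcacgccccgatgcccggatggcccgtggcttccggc
Ccng1: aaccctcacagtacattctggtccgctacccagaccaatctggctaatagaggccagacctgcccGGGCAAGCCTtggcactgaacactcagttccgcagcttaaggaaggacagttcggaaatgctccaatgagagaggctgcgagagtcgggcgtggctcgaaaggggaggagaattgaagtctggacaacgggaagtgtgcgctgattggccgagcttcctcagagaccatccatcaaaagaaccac
Bax: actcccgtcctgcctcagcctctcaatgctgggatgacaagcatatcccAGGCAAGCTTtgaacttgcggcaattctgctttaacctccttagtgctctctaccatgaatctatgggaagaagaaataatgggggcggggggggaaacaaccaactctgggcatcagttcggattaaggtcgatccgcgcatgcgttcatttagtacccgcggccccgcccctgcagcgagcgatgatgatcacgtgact
The window of Phlda3 (chr1:135765835-135766084, plus strand) is shown beside them as an example of a gene that rose in the knockout and whose window held no decamer.
Phlda3: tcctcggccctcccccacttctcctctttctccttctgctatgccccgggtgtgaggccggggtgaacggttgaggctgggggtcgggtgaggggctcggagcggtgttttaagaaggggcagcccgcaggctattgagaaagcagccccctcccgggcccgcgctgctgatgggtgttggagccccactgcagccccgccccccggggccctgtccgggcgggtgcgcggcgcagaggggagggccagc
The decamer lay 75 bases before the start in Trp53, 186 in Mdm2, 185 in Ccng1 and 201 in Bax. A complete element, a pair of decamers at most 13 bases apart, was found in 21 of all windows (0.0639%) and in none of the 8. A match describes letters only, and elements farther upstream or inside a gene lie outside these windows.

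In EED-cKO forebrain, 5 target genes rose together: Phlda3, Pmaip1, Eda2r, Sesn2 and Ccng1. Their log2 changes lay between 1.50 and 2.27. The transcript of p53 itself fell, and Mdm2, Trp53inp1, Bbc3 and Bax did not pass the test. The rising genes came from the feedback, the arrest and metabolic, and the apoptotic groups, and each group other than the arrest and metabolic genes also held genes that did not pass. The share of all 17022 tested genes called in this comparison was 30.2% higher and 16.7% lower (46.9% in either direction), against 5 and 1 of the 10. Calls are from limma on log2(RPKM + 1) at a Benjamini-Hochberg adjusted p under 0.05, and the 6 calls held in every alternative run, with each library left out included.

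**Figure D1:**
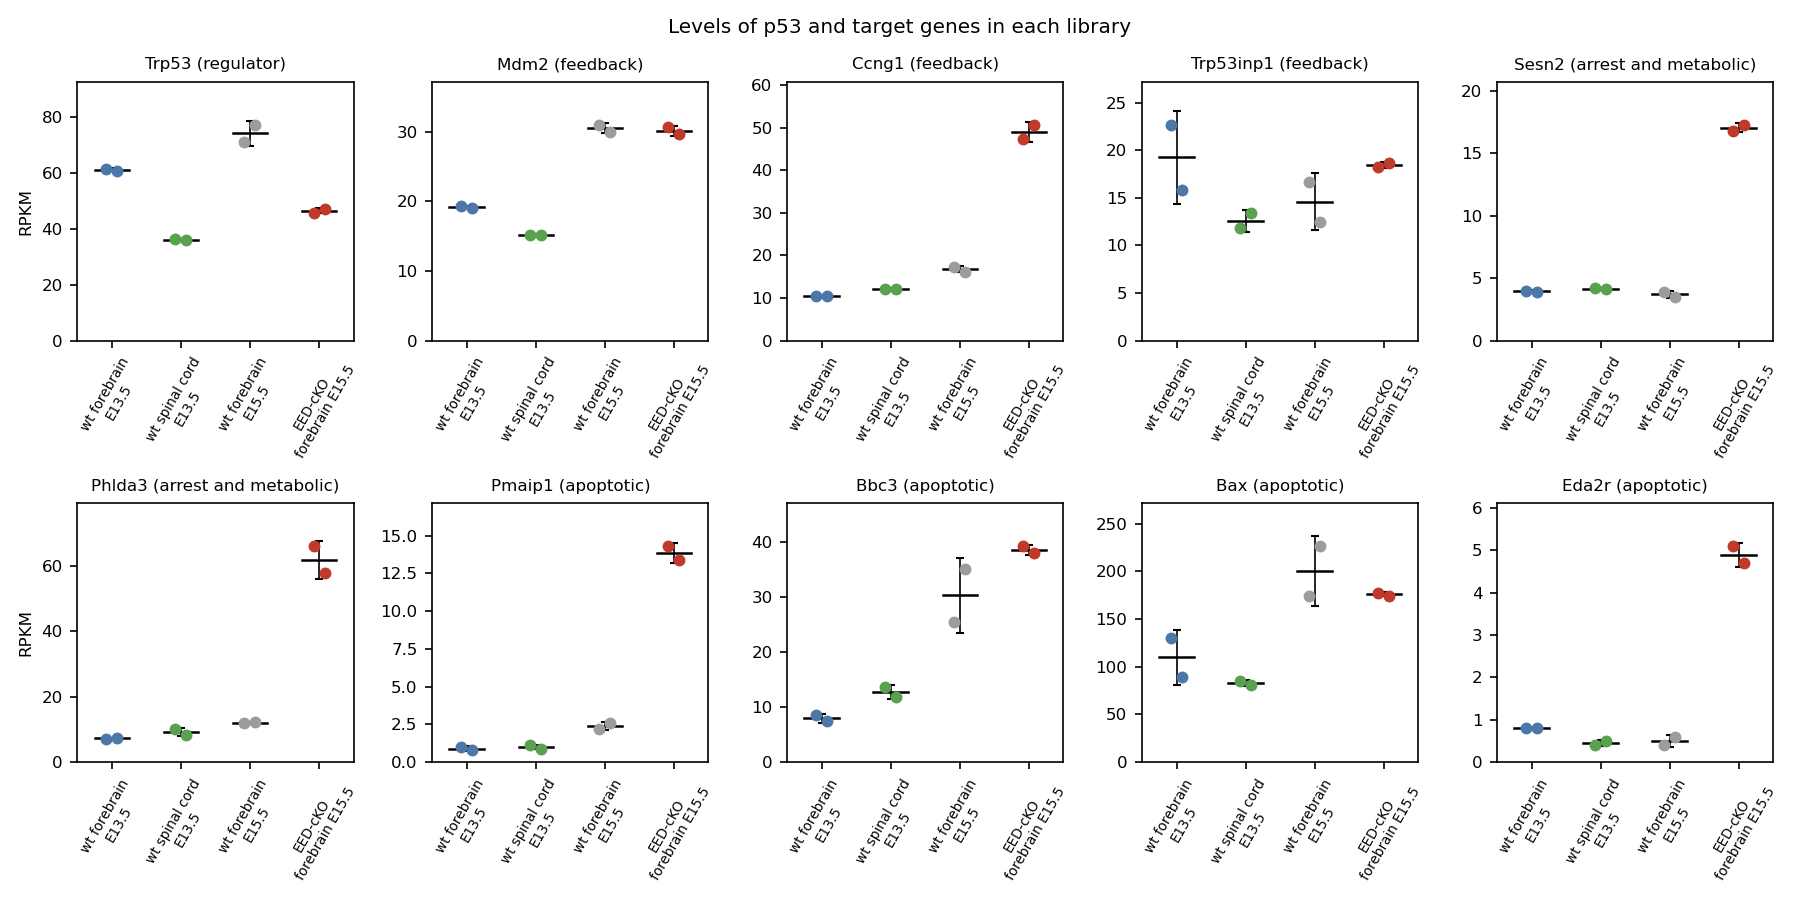
RPKM of each of the 10 genes in the 8 libraries by group, on linear axes that start at 0, with a point for each library, a bar for the group mean and whiskers for the SD of its 2 libraries. Phlda3, Pmaip1, Eda2r, Sesn2 and Ccng1 stand apart in the 2 EED-cKO libraries, while Mdm2 and Bax overlap with wt.

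Trp53 (GRCm38 chr11:69580359-69591873, plus strand) was at 71.2 and 77.4 RPKM in wt E15.5 forebrain, against 45.9 and 47.3 RPKM in EED-cKO. Both knockout libraries lay below both controls. The log2 change was -0.66 (SE 0.060, 95% interval -0.80 to -0.52, limma adjusted p 0.000279). A change further down was seen in 3.03% of tested genes.

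Mdm2 (chr10:117688875-117710758, minus strand), the ligase that marks p53 for destruction, was at 31.0 and 30.0 RPKM in wt, against 30.6 and 29.6 RPKM in EED-cKO. The groups overlapped, and the 95% interval of the log2 change ran from -0.15 to 0.12 (limma adjusted p 0.823). Ccng1 (chr11:40748552-40755311, minus strand) encodes cyclin G1, which recruits a phosphatase to Mdm2. Its level was 17.2 and 16.2 RPKM in wt and 47.3 and 50.7 RPKM in EED-cKO. The knockout libraries were far above the controls, with a log2 change of 1.50 (SE 0.067, limma adjusted p 2.29e-05). Trp53inp1 (chr4:11156431-11174379, plus strand), a nuclear cofactor that aids p53 phosphorylation, was at 16.7 and 12.5 RPKM in wt, against 18.2 and 18.7 RPKM in EED-cKO. The groups did not overlap, but the wt libraries differed from each other by more than the gap between groups, and the change of 0.33 (SE 0.18) did not pass (limma adjusted p 0.181).

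Sesn2 (chr4:132492032-132510501, minus strand) encodes sestrin 2, a stress-induced brake on the growth kinase mTORC1. It was at 3.9 and 3.5 RPKM in wt, against 16.8 and 17.3 RPKM in EED-cKO. The libraries within each group were close, and the log2 change was 1.94 (SE 0.082, limma adjusted p 1.83e-05). Phlda3 (chr1:135766119-135769136, plus strand) encodes a pleckstrin-homology protein that competes with the kinase Akt for membrane lipids. It was at 11.8 and 12.3 RPKM in wt, against 66.0 and 57.8 RPKM in EED-cKO. The change was 2.27 (SE 0.11, limma adjusted p 2.5e-05), the largest of the 10 genes on the log2(RPKM + 1) scale, and 0.529% of tested genes had a higher one. With a pseudocount of 0.1 the order turned, with Eda2r at 3.08, Pmaip1 at 2.48 and Phlda3 at 2.35. The best known arrest target, Cdkn1a (p21), was at 26.2 and 21.9 RPKM in wt, against 71.1 and 70.1 RPKM in EED-cKO, a log2 change of 1.52 (SE 0.094, limma adjusted p 7.36e-05).

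Pmaip1 (chr18:66458533-66465565, plus strand) encodes Noxa, a BH3-only protein that neutralises Mcl1. It was at 2.2 and 2.6 RPKM in wt, against 14.3 and 13.4 RPKM in EED-cKO. The groups were far apart, with a log2 change of 2.13 (SE 0.11, limma adjusted p 3.6e-05). Eda2r (chrX:97333840-97377216, minus strand), a receptor that binds ectodysplasin A2, was at 0.4 and 0.6 RPKM in wt, against 5.1 and 4.7 RPKM in EED-cKO. From this low base the log2 change was 1.98 (SE 0.097, limma adjusted p 3.16e-05), a scale that understates the change of low genes. Eda2r entered the tests only through the EED-cKO libraries, the group where it is high, so its place among the called genes is set in part by the filter. With all genes tested and no filter, its limma adjusted p was 0.000439 in the knockout and 0.0497 between regions.

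The other 2 apoptotic genes did not pass. Bbc3 (chr7:16308393-16318205, plus strand) encodes Puma, the BH3-only protein known for killing neurons downstream of p53. It was at 25.4 and 35.1 RPKM in wt, against 39.2 and 37.9 RPKM in EED-cKO. The groups did not overlap, and the change of 0.36 (SE 0.15, limma adjusted p 0.0906) missed the threshold, but without wt E15.5 replicate 2 it was 0.58 and passed (adjusted p 0.0147). Bax (chr7:45461697-45466898, minus strand), the pore-forming effector, was at 174.5 and 226.4 RPKM in wt, against 177.4 and 174.5 RPKM in EED-cKO. Both EED-cKO values lay within the range of the wt values, and the 95% interval of the log2 change ran from -0.61 to 0.26 (limma adjusted p 0.471). Of the 1576 exon bases of Bax, 192 (12.2%) are shared with Gm45808 on the same strand, so its level is uncertain to that extent.

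Groups without overlap were seen for 8 of the 10 genes in the knockout comparison and for 70.3% of all tested genes.

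**Figure D2:**
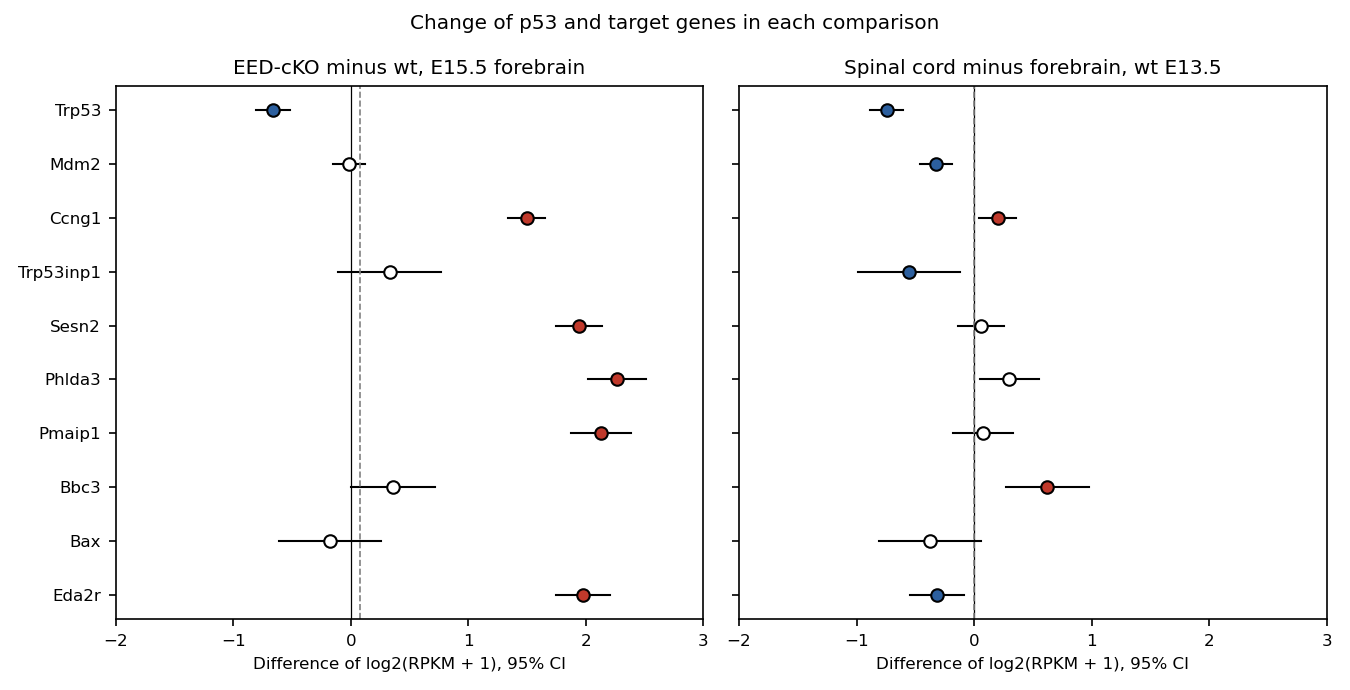
Log2 change of each of the 10 genes with its 95% interval, for EED-cKO against wt at E15.5 and for spinal cord against forebrain at E13.5, with filled points for calls. In the knockout 5 genes lie between 1.50 and 2.27 and Trp53 at -0.66, and the regional change largest in size is that of Trp53, -0.74. The dashed line is the median of all tested genes.

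Ratios within a library, picked after the levels were seen, put the unequal change of genes of like role in a form free of library scale. The ratio of Ccng1 to Mdm2 was 0.555 and 0.540 in wt E15.5 forebrain and 1.55 and 1.71 in EED-cKO. In the E13.5 wt libraries it was 0.539 and 0.545 in forebrain and 0.795 and 0.803 in spinal cord, so both knockout libraries exceeded every wt library. The ratio of Pmaip1 to Bax was 0.0126 and 0.0115 in wt E15.5 forebrain and 0.0806 and 0.0768 in EED-cKO. The ratio of Pmaip1 to Bbc3 was 0.0866 and 0.0741 in wt and 0.365 and 0.354 in EED-cKO. The ratio of Phlda3 to Trp53 was 0.166 and 0.159 in wt and 1.44 and 1.22 in EED-cKO. A ratio shows that the genes changed unequally, and not that either stood still.

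**Figure D3:**
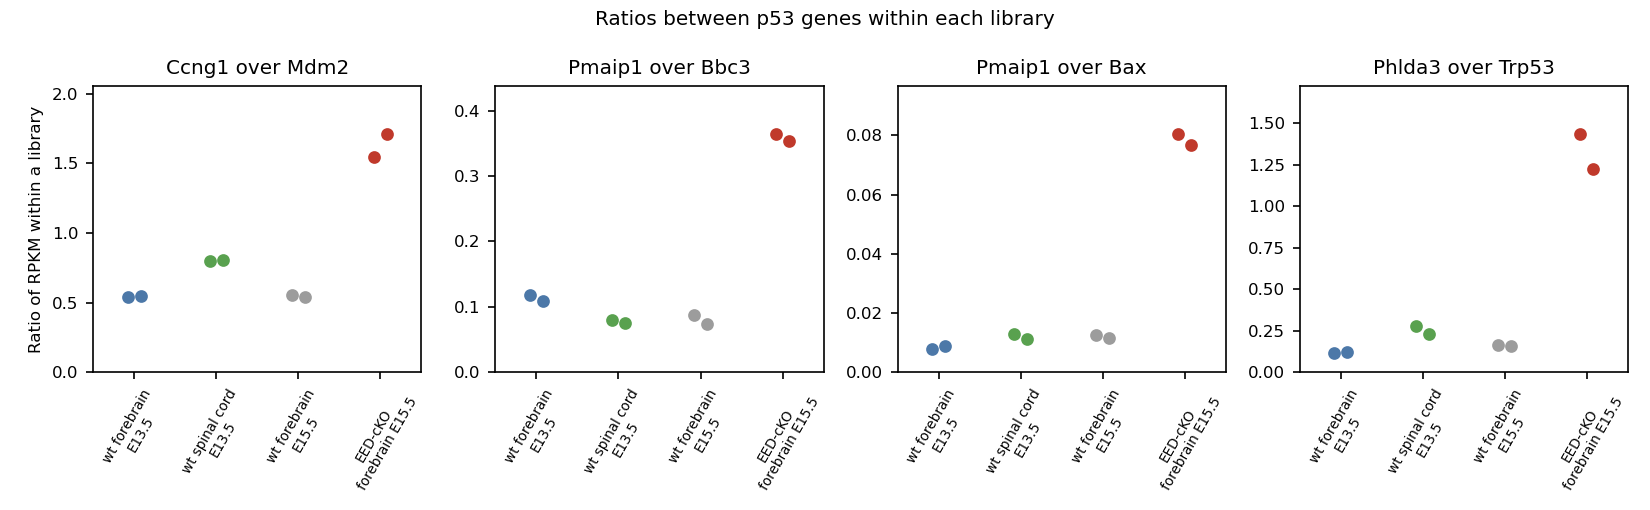
Ratios of RPKM within each library for 4 pairs of genes, on linear axes that start at 0, with 1 point for each library. The EED-cKO libraries are the highest in each panel, at 1.55 and 1.71 for Ccng1 to Mdm2 against 0.555 and 0.540 in wt E15.5 forebrain.

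Between spinal cord and forebrain of wt embryos at E13.5, 6 of the 10 genes differed. Trp53, Mdm2, Trp53inp1 and Eda2r were lower in spinal cord than in forebrain, Ccng1 and Bbc3 were higher, and Sesn2, Phlda3, Pmaip1 and Bax did not pass the test. The share of tested genes called was 21.8% higher and 23.9% lower (45.7% in either direction), against 2 and 4 of the 10. The 2 regions had no overlapping values for 9 of the 10 genes, and for 76.3% of tested genes.

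Trp53 was at 61.6 and 60.9 RPKM in forebrain, against 36.4 and 35.9 RPKM in spinal cord. The libraries of each region were close, and the log2 change was -0.74 (SE 0.060, limma adjusted p 9.76e-05). Mdm2 was at 19.3 and 19.1 RPKM in forebrain, against 15.1 and 15.2 RPKM in spinal cord. Its change was smaller, -0.32 (SE 0.058, limma adjusted p 0.00355). The calls of Trp53 and Mdm2 held in every alternative run, and those of the other 4 genes did not.

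Bbc3 was at 8.5 and 7.4 RPKM in forebrain, against 13.7 and 11.9 RPKM in spinal cord, a log2 change of 0.62 (SE 0.15, limma adjusted p 0.013). The call was lost without forebrain replicate 2 (adjusted p 0.0909) or spinal cord replicate 1 (0.0929). Ccng1 was at 10.4 RPKM in both forebrain libraries, against 12 and 12.2 RPKM in spinal cord. Its change of 0.20 (SE 0.067, limma adjusted p 0.0447) was close to the threshold and was called in 2 of the 8 fits that left out a library, with adjusted p up to 0.161. Trp53inp1 was at 22.7 and 15.8 RPKM in forebrain, against 11.8 and 13.4 RPKM in spinal cord, a log2 change of -0.56 (SE 0.18, limma adjusted p 0.0439). It was called in 3 of those 8 fits, and the forebrain libraries differed more from each other than the nearest libraries of the 2 regions did. Eda2r was at 0.8 RPKM in both forebrain libraries, against 0.4 and 0.5 RPKM in spinal cord. Its change of -0.31 (SE 0.097, limma adjusted p 0.0345) was called in 4 of the 8 fits and rests on levels of a few rounding steps of 0.1 RPKM.

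Sesn2 was at 4.0 and 3.9 RPKM in forebrain, against 4.2 and 4.1 RPKM in spinal cord, with a 95% interval of the log2 change from -0.14 to 0.25. Pmaip1 was at 1.0 and 0.8 RPKM in forebrain, against 1.1 and 0.9 RPKM in spinal cord, and was the only gene of the 10 whose regional groups overlapped (interval -0.18 to 0.33). Phlda3 was at 7.1 and 7.4 RPKM in forebrain, against 10.1 and 8.3 RPKM in spinal cord. Its change of 0.30 just missed the threshold (interval 0.05 to 0.55, limma adjusted p 0.0529) and passed without spinal cord replicate 2 (0.43, adjusted p 0.0313). Bax was at 130.5 and 89.3 RPKM in forebrain, against 85.3 and 80.5 RPKM in spinal cord. Forebrain replicate 1 stood high, the change of -0.38 (SE 0.18) did not pass (limma adjusted p 0.137), and without forebrain replicate 2 it was -0.65 and passed (adjusted p 0.0281).

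The difference between the knockout change and the regional change was tested in the same fit, a test added after the levels were seen. For Phlda3, Pmaip1, Eda2r, Sesn2 and Ccng1 the knockout change was the higher by 1.30 to 2.29 on the log2 scale, and this held in every alternative run. The share of tested genes called for this difference was 36.1% in either direction, and 23.4% with the higher change in the knockout. The difference was 2.29 (SE 0.14, limma adjusted p 9.05e-05) for Eda2r, which rose in the knockout and was lower in spinal cord. For Ccng1, which was called higher in both comparisons, it was 1.30 (SE 0.095, limma adjusted p 0.000163). Eda2r passed the filter only through EED-cKO, and its E13.5 levels were 0.8 RPKM in forebrain and 0.4 and 0.5 RPKM in spinal cord. The regional calls of Eda2r and Ccng1 did not hold in every alternative run. Trp53 fell in the knockout and was lower in spinal cord by a like amount: the difference of 0.08 had an interval of -0.12 to 0.29 (limma adjusted p 0.486). Mdm2 differed by 0.30 (SE 0.081, limma adjusted p 0.0246) and Trp53inp1 by 0.89 (SE 0.26, limma adjusted p 0.035). Each of those 2 calls was made in only 2 of the 8 fits that left out a library. With median ratio scaling, Mdm2 differed by 0.17 (adjusted p 0.175), and without the filter on low values, the adjusted p of Trp53inp1 was 0.0956. Bbc3 and Bax did not pass, at -0.27 (SE 0.21) and 0.20 (SE 0.26), although Bbc3 passed without wt E15.5 replicate 1 (-0.49, adjusted p 0.0446).

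Across the 8 libraries, with the mean of each age subtracted, the log2 levels of Ccng1, Sesn2, Phlda3, Pmaip1 and Eda2r correlated pairwise with r between 0.949 and 0.994. These points share their libraries and fall into 4 groups, so r is a description. The genes named were put together because each was called higher in EED-cKO. With the age means subtracted, that gap between EED-cKO and wt dominates their values, so a high r among them follows from the choice. It is no separate sign that they vary together. The high r of other genes with them, given below, rests on the same gap. Mdm2 and Trp53 had r = 0.762, and Ccng1 and Mdm2 had r = -0.187. By the same measure, the most like of 12432 other genes was Cdkn2b, a cyclin-dependent kinase inhibitor, for Sesn2 (r = 0.999), Angptl4 for Phlda3 (0.996), Ttyh1 for Pmaip1 (0.998), Pon2 for Eda2r (0.996) and Wls for Ccng1 (0.998). For Trp53 it was Rcc2 (0.998), and for Mdm2 it was Pspc1 (0.997). Cd68, a macrophage gene, ranked second for both Phlda3 (0.995) and Pmaip1 (0.996), and its E15.5 values rest on the restored row order.

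Beyond the 10 genes, 35 of 36 other genes known as p53 targets could be tested, and 15 rose and 6 fell in EED-cKO, beside 30.2% and 16.7% of all tested genes. Their median change was 0.23, against 0.08 over all tested genes. Cdkn1a, Tnfrsf10b, Sfn and Perp changed most. Gdf15, counted among the 15 rises, was at 0.2 RPKM or less in every wt library, against 1.2 and 1.1 RPKM in EED-cKO. It passed the filter only through EED-cKO. Tnfrsf10b, a death receptor, was at 1.2 and 0.8 RPKM in wt, against 4.1 RPKM in both EED-cKO libraries (1.36, SE 0.11, limma adjusted p 0.000199). Sfn, the checkpoint protein 14-3-3 sigma, was at 2.1 and 2.5 RPKM in wt, against 6.8 and 7.0 RPKM in EED-cKO (1.26, SE 0.11, limma adjusted p 0.000203). Perp, a membrane protein of desmosomes and apoptosis, was at 4.3 and 5.6 RPKM in wt, against 12.6 and 11.7 RPKM in EED-cKO (1.15, SE 0.12, limma adjusted p 0.00046). Sfn and Perp are also genes of surface epithelium. Its 4 tested markers were higher in EED-cKO, as given with the other marker lists, but Krt5 and Krt14 were too low to test. Plk2 was at 97.2 and 88.1 RPKM in wt, against 58.5 and 58.9 RPKM in EED-cKO (-0.65, SE 0.068, limma adjusted p 0.000447), and Tigar, a regulator of glycolysis, fell by 0.56. Of the 15 rises 12 held with each library left out and under both other scalings, and so did the falls of Plk2 and Tigar alone among the 6. Median ratio scaling gave 13 rises and 10 falls with a median of 0.08, and quantile normalization gave 15 and 10 with a median of 0.07. Over all tested genes, median ratio scaling gave 3861 rises and 4642 falls with a median of -0.04. Quantile normalization gave 3540 and 4314 with a median of -0.05. Between regions 3 of these targets were higher and 15 lower in spinal cord, beside 21.8% and 23.9% of all tested genes, with a median of -0.19 against 0.00 over all tested genes. Trp73 (-2.77), Psrc1 (-2.31), Gtse1 (-2.03) and Ckap2 (-1.46) were the lowest there, and the last 3 are genes of mitosis or the spindle. Gadd45a was the highest (0.52), and Cdkn1a was lower, at 8.3 and 7.5 RPKM in spinal cord against 11.4 and 11.5 in forebrain (-0.49, SE 0.094, limma adjusted p 0.00499).

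**Figure D4:**
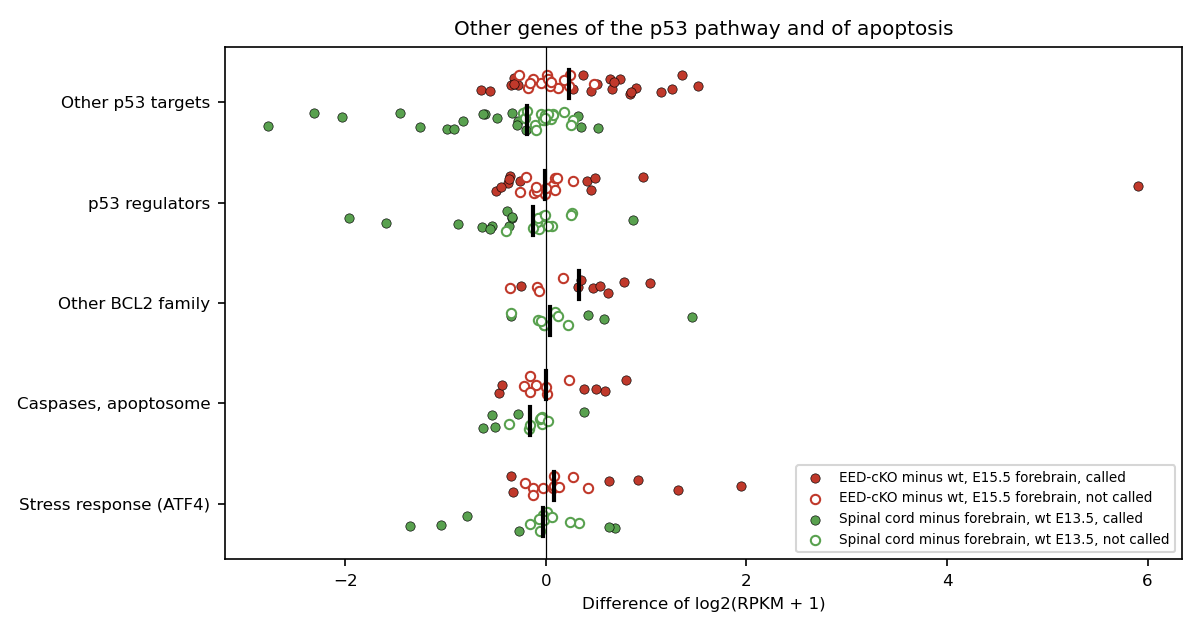
Log2 change of the tested genes of each list (points, filled for calls) with the list median (bar), in both comparisons. The other p53 targets have a median of 0.23 in the knockout and -0.19 between regions, on either side of medians of 0.08 and 0.00 over all tested genes.

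Among the genes that control p53, the source of p19Arf moved most. Cdkn2a, which encodes both p16Ink4a and p19Arf, was at 0.1 RPKM in both wt E15.5 libraries, against 63.9 and 66.4 RPKM in EED-cKO. The log2 change was 5.91 (SE 0.086, limma adjusted p 3.76e-07), and gene-level values do not separate the 2 products. Cdkn2a was at 0.1 RPKM or less in all 6 wt libraries and passed the filter only through EED-cKO. Without the filter its limma adjusted p was 1.32e-05. Mdm4, the partner of Mdm2, was at 19.9 and 15.7 RPKM in wt, against 18.2 and 19.6 RPKM in EED-cKO, and its groups overlapped (95% interval -0.16 to 0.34), although without wt E15.5 replicate 1 it was called higher (0.25, limma adjusted p 0.0215). Of 23 regulators tested, 5 rose and 6 fell, beside 30.2% and 16.7% of all tested genes, with a median of -0.01 against 0.08. The rises of Cdkn2a and Hipk2, a kinase of p53 (0.97, SE 0.16, limma adjusted p 0.00257), and the fall of Daxx (-0.36, SE 0.059, limma adjusted p 0.00278) held with each library left out and under both other scalings. The other 8 calls did not. Median ratio scaling gave 2 rises and 9 falls, beside 3861 and 4642 over all tested genes. Between regions 1 regulator was higher in spinal cord, Ppp1r13b (0.87), and 10 were lower, beside 21.8% and 23.9% of all tested genes. The lowest were the checkpoint kinases Chek1 (-1.97) and Chek2 (-1.60).

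Of the p53 family, Trp73 was at 6.5 and 6.3 RPKM in wt E15.5 forebrain, against 13.3 and 11.5 RPKM in EED-cKO. It rose by 0.85 (SE 0.10, limma adjusted p 0.000796) where Trp53 fell. In E13.5 spinal cord Trp73 was listed at 0.1 and 0.0 RPKM, against 5.9 and 6.4 RPKM in forebrain, where it marks Cajal-Retzius cells among others. Trp63 was at 0.2 RPKM or less in every library and was not tested. The ligand of the Eda2r family, Eda, was at 3.1 and 2.9 RPKM in wt, against 3.1 and 3.3 RPKM in EED-cKO, and its change of 0.07 did not pass (limma adjusted p 0.587).

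Of the 12 other BCL2 family genes tested, 7 rose and 1 fell in EED-cKO, beside 30.2% and 16.7% of all tested genes, with a median of 0.33 against 0.08. The BH3-only gene Bcl2l11 (Bim), a target of Foxo factors, was at 4.6 and 5.7 RPKM in wt, against 11.5 and 11.7 RPKM in EED-cKO (1.04, SE 0.10, limma adjusted p 0.000378). Its call alone held with each library left out and under both other scalings. Median ratio scaling gave 5 rises and 3 falls, beside 3861 and 4642 over all tested genes. Quantile normalization gave 4 and 0, beside 3540 and 4314. Between regions Hrk, a BH3-only gene, was at 5.1 and 5.2 RPKM in spinal cord against 1.4 and 1.1 RPKM in forebrain (1.45, SE 0.18, limma adjusted p 0.000607), and Bmf (0.58) and Bid (0.42) were also higher. In all, 3 of the 12 were higher in spinal cord and 1 lower, beside 21.8% and 23.9% of all tested genes.

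Of 13 genes of caspases and the apoptosome tested, 4 rose and 2 fell in EED-cKO, shares near those of all tested genes (30.2% and 16.7%), with a median of 0.00 against 0.08. Casp8, the initiator of death receptors, was at 3.5 and 2.9 RPKM in wt, against 6.1 and 6.5 RPKM in EED-cKO (0.80, SE 0.13, limma adjusted p 0.00235). Casp2 was at 36.5 and 32.4 RPKM in wt, against 24.3 and 24.9 RPKM in EED-cKO (-0.47, SE 0.080, limma adjusted p 0.00332). The E15.5 values of both genes, like those of Tnfrsf10b, Gdf15, Bcl2l11 and Slc7a11, rest on the restored row order. Both calls held with each library left out and under both other scalings, and 3 of the 6 calls of the list did not. Median ratio scaling gave 2 rises and 5 falls, beside 3861 and 4642 over all tested genes. Between regions Casp9 was higher in spinal cord (0.38) and 4 of the 13 were lower, led by Casp2 (-0.62), with a median of -0.16. Of all tested genes, 21.8% were higher there and 23.9% lower.

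Sesn2 is also raised by Atf4 in the integrated stress response, so the genes of that response were counted. Of 16 tested, Sesn2 among them, 4 rose and 2 fell in EED-cKO, beside 30.2% and 16.7% of all tested genes, with a median of 0.08 for both. The part of this response in the level of Sesn2 was not tested. Slc7a11, the cystine transporter, was at 3.2 and 2.0 RPKM in wt, against 7.2 and 8.6 RPKM in EED-cKO (1.32, SE 0.16, limma adjusted p 0.000743), and Cebpb rose by 0.92. Atf4 itself was at 141.2 and 158.8 RPKM in wt, against 117.2 and 120.9 RPKM in EED-cKO (-0.33, SE 0.070, limma adjusted p 0.00786). The fall of Atf4 was lost without EED-cKO replicate 1. Between regions 2 of the 16 were higher and 4 lower in spinal cord, beside 21.8% and 23.9% of all tested genes. Atf5 was the lowest (-1.35).

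Markers of other cell types changed in the comparison in which the 5 targets rose, where 30.2% of all tested genes were higher and 16.7% lower. In EED-cKO all 10 mesenchyme markers were higher, with sums of 207.0 to 270.8 RPKM in wt and 795.7 to 969.5 in EED-cKO. Endothelial markers were higher in 8 of 8 (189.2 to 197.1 against 277.2 to 286.0 RPKM), macrophage markers in 8 of 9 tested (115.2 to 125.4 against 203.3 to 218.9) and surface epithelium markers in 4 of 4 tested (9.9 to 10.1 against 40.0 to 54.9). Median ratio scaling gave 5 of the 8 endothelial markers higher, and quantile normalization gave 7. Some endothelial and macrophage calls were lost when a library was left out. Krt5 and Krt14 of the surface epithelium list were at 0.6 RPKM or less in every library and were not tested. Of 10 forebrain markers 7 were lower and 2 higher (960.4 to 1004.4 against 238.0 to 280.9 RPKM), and all 10 spinal cord markers were higher (0.0 to 0.1 against 79.1 to 89.8). Of 7 markers of neural progenitors and neurons 1 was higher and 2 lower (4123.5 to 4301.2 RPKM against 3113.8 to 3239.7), and Tubb3 fell by 0.66. Of 9 erythroid markers 1 was higher and 1 lower (8274.3 to 11080 RPKM against 11533.8 to 12987.3), the latter being Hbb-bt, at 395.4 and 547.4 RPKM in wt and 5.9 and 8.1 in EED-cKO. The E15.5 values of some markers, Hox and collagen genes among them, rest on the restored row order. No marker was at 0 in all 8 libraries. Their part in the changes of the p53 targets was not tested. Skeletal muscle markers summed to 6.7 RPKM in EED-cKO replicate 1 and 108.4 in replicate 2, and without replicate 2 the 5 rises and the fall of Trp53 were called as before. Between regions, all 10 forebrain markers were lower and all 10 spinal cord markers higher in spinal cord (0.3 to 0.5 RPKM in forebrain, 1088.6 to 1305.8 in spinal cord), as the labels say. There 5 mesenchyme markers were higher and 2 lower, 7 of 9 macrophage markers were higher and 7 of 9 erythroid markers lower. Of 8 endothelial markers 2 were higher, and the 4 tested surface epithelium markers were lower. Of 7 markers of neural progenitors and neurons, Tubb3, Map2, Stmn2 and Dcx were higher in spinal cord. Sox2 (-1.37), Nes (-0.94) and Pax6 (-2.23) were lower. In each of these lists some calls did not hold with each library left out and under both other scalings. Of all tested genes, 21.8% were higher in spinal cord and 23.9% lower. The part of these markers in the regional values was not tested either.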

How the data were processed

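RPKM values, as deposited by the authors, filled a table of 36333 rows named by gene symbol with 1 column a library, per the file headers, and were rounded to 0.1. Per the labels, total RNA of dissected tissue was made into unstranded single-end libraries with NEBNext Ultra and sequenced on a HiSeq2500. The submitters' processing notes name mm9 and GRCm38 without their roles. The aligner and counter are not given in the sources used here. There are no counts, so depth is unknown and counting error could not be given.

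For the E15.5 columns the names were sorted alphabetically without regard to case or hyphens, which moved 23016 rows and raised the log2 correlation of wt forebrain between the ages from 0.760 to 0.948. A symbol listed more than once (16 of them) was read from its row of highest mean. The 17022 genes that reached 1 RPKM in 2 or more libraries were tested on log2(RPKM + 1), so changes of low genes are understated. limma 3.58.1 under R 4.3.3 was fitted to all 8 libraries with 4 group means (eBayes with trend, 2-sided, 4 residual degrees of freedom), and p-values were adjusted by Benjamini-Hochberg across the 17022 genes. On simulated data, with 100 genes of a mean log2 level above 2 raised by each size, the knockout comparison called 86 at a log2 change of 1 and 100 at 2, the regional comparison 85 and 100, and each called 8 unchanged genes of the 17022 tested. Groups follow the labelled age, tissue and genotype.

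The members and lists were chosen with earlier results of these data known. Named whatever their test were the 10 genes, Cdkn1a, Cdkn2a, Eed and Mdm4. From each list, up to 4 called genes a direction with the largest change and at least 2 RPKM in the higher group could be named, and so could the 3 most like genes of each member, of which the text takes up some. Trp63, Eda, Tubb3, Hbb-bt, Krt5, Krt14 and Gdf15 were named after their values were seen. A gene of the caspase list is not reported here. Alternatives were the deposited order, the 4 libraries alone, a pseudocount of 0.1, no filter, median ratio scaling, quantile normalization, a replicate block and each library left out. Coordinates are those of GENCODE M21 on GRCm38, and promoter windows those of RefSeq on GRCm38.p6. Python 3.11.15 with pandas 2.3.3 and matplotlib 3.10.9 made the tables and figures.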

Additional observations from a re-analysis of the deposited data

How the results depend on the processing

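In the knockout comparison the 5 rises and the fall of Trp53 were called under each alternative run, with 5 to 6 genes of the 10 higher and 1 lower when each library was left out (the sixth was Bbc3). Over all genes, leaving out a library gave 3440 to 6054 higher and 1482 to 3552 lower in the knockout comparison, and 2501 to 4422 higher and 2704 to 4898 lower between regions. Between regions 0 to 2 of the 10 genes were then higher and 2 to 4 lower. Fitting only the 4 E15.5 libraries called 3393 genes higher and 1384 lower. Scaling moved the split in the knockout: 5149 higher and 2838 lower as given (64.5% of calls higher), 3861 and 4642 with median ratio scaling (45.4%), and 3540 and 4314 with quantile normalization (45.1%), with the median of all tested genes going from 0.08 to -0.04 and -0.05. The changes of the 10 genes shift with it, and no direction of a called gene turned.

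The groups share replicate numbers that no label ties to a litter or day, and deviations of replicate 1 correlated at 0.211 between the E13.5 regions and at -0.124 between wt and EED-cKO. With the replicate number as a block, 5 of the 10 genes were higher and 1 lower in the knockout (4976 and 2632 over all genes), and 1 was higher and 3 lower between regions (3581 and 3885), with Ccng1 (adjusted p 0.0699) and Eda2r (0.05) lost. Crossing the numbers in the E15.5 groups, an alternative chosen after seeing the data, gave 5 and 1 of the 10 and 5229 and 2784 over all genes. Depth is unknown, and Eda2r and Pmaip1, at 0.4 to 0.8 and 0.8 to 2.6 RPKM in the wt libraries, are limited by the rounding to 0.1 RPKM.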
